A study of Gossypium barbadense and Gossypium hirsutum with 4 samples.

Results

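On the Affymetrix cotton GeneChip, 69 probe sets carry names that start with GarAffx, and all of them were taken, out of the 24029 probe sets that are not Affymetrix (AFFX) controls. They were designed from sequences of *G. arboreum*, a diploid cotton of the A genome, and each of the 7 of them whose array description was used here gives *G. arboreum* as the organism of its sequence. The arrays compared elongating fibers of *G. hirsutum* (*Gh*), variety Guazuncho 2, with those of *G. barbadense* (*Gb*), variety VH8-4602, the parents of a population of recombinant inbred lines used to map fiber quality. Plants were untreated and grown in soil in a glasshouse, and fibers were taken at 11 days post anthesis (dpa) by the sample labels. There were 2 arrays per genotype, V.1 and V.2 for *Gb* and G.29 and G.30 for *Gh*, described as independent replicates of RNA pooled from 4 plants. Each genotype is represented by a single variety, so that a difference between the varieties and a difference between the species cannot be told apart.

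*Gh* and *Gb* are allotetraploids, whose nuclei hold an A subgenome (AT) from a parent close to *G. arboreum* and a D subgenome (DT) from a parent close to *G. raimondii*. Both can therefore carry a counterpart of a *G. arboreum* gene and a homoeolog of it from the D genome, which was not checked for these probe sets. *G. arboreum* itself bears spinnable fiber, and cotton fibers are single cells that grow out from the seed coat and elongate fast at this age. Of the 69 probe sets, 52 have names ending in _s_at and 6 in _x_at, endings that mark probes able to bind more than 1 transcript, and only 11 end in _at. A signal of most of them may thus sum homoeologs or related genes, and the letters Gar say where the sequence came from and not which subgenome was transcribed.

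Values are log2 signals after gcrma, a method that models background from probe sequence, gives all arrays a common distribution and summarizes each probe set. Signals under 4 (log2) were treated as below a floor, and a difference is *Gb* minus *Gh*, so that a negative value means a higher signal in *Gh*. Genotypes were compared with limma over all 24029 probe sets, with Benjamini-Hochberg adjusted p-values and a threshold of 0.05. Array medians over these probe sets lay between 4.26 and 4.36. On the *Gb* arrays the 5' signal of all 4 cotton control transcripts with a 5' and a 3' probe set was lower relative to the 3' signal, a sign of RNA quality, by a log2 difference of -0.30 for ubq11 to -1.18 for the *G. raimondii* actin. Within *Gh*, G.30 lay above G.29 in all 4 controls, most in ss1 (-3.62 against -4.62). For ubq11, V.2 (-1.80) and G.29 (-1.79) nearly coincided. The part of the shift between genotypes in the differences of signal was not tested. Some rows with protein names were of fiber markers. Means were 7.37 to 13.53 in *Gb* and 8.38 to 14.68 in *Gh* for 3 lipid transfer proteins. For 5 tubulins they were 6.03 to 13.13 and 7.37 to 14.49. For 3 xyloglucan endotransglycosylases they were 10.77 to 13.23 and 12.42 to 14.63. The 2 expansins had 6.31 and 9.41 in *Gb* and 7.85 and 11.45 in *Gh*, and 1 arabinogalactan protein had 5.50 in *Gb* and 10.40 in *Gh*. Of names of green or seed tissue, RuBisCO stood in 1 row (7.08 in *Gb* and 9.13 in *Gh*), and a late embryogenesis abundant protein in 1 row (9.39 in *Gb* and 10.53 in *Gh*), whose array description gives this name while the other name column calls it a gibberellin receptor. Chlorophyll a-b binding protein, vicilin and legumin stood in none. These rows are a shortened list of genes that the study called differential between the genotypes on these arrays. It holds probe sets only if their signal in *Gh* was at least 2-fold that in *Gb*, and the absence of a name says nothing of the whole array.

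The *G. arboreum* probe sets were bright. Their mean log2 signal over the 4 arrays had a median of 9.92 and quartiles of 4.71 and 12.17, against a median of 4.36 and quartiles of 2.34 and 8.80 for the other 23960 probe sets. Of the 69, 33 (47.8%) had a mean of at least 10, against 16.8% of all 24029. They were not bright throughout, since 15 (21.7%) lay below the floor on all 4 arrays, against 46.0% of all probe sets. Another 2, GarAffx.37327.1.S1_at and GarAffx.37326.1.A1_x_at, were below it on both *Gh* arrays but not on both *Gb* arrays (background 1.76%), and 0 the other way round (background 2.15%). The medians of the 69 on the single arrays were 9.86 (V.1), 9.53 (V.2), 9.81 (G.29) and 9.75 (G.30), so that the level of the set as a whole differed little between the genotypes.

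By species of the design sequence, the *G. barbadense* probe sets (n = 36) had a like median of 10.08. The *G. hirsutum* designs (n = 16804) had a median of 6.50 and the *G. raimondii* designs (n = 7068) of 2.47, with 72.5% of the latter below the floor in both genotypes. The ending of the name went with the level. Among *G. arboreum* probe sets ending in _s_at the median was 10.86, and 19 of the 20 members with a mean of at least 12 had this ending, whereas the 17 with other endings had a median of 3.55. The other _s_at probe sets of the array had a median of 6.51, and 57.7% of the *G. arboreum* ones but 25.8% of the others reached 10.

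The brightest members were GarAffx.24961.1.S1_s_at and GarAffx.24961.2.S1_s_at, which ranked 4 and 6 of all 24029 probe sets. The first gave 15.87 and 15.88 on the *Gb* arrays and 16.02 and 16.005 on the *Gh* arrays. The second gave 15.80 and 15.83 in *Gb* and 15.97 and 15.94 in *Gh*. Both were thus lower on both *Gb* arrays by a small step, with differences of -0.14 each, which did not pass the threshold (limma, adjusted p = 0.0554 and 0.0788). GarAffx.14950.1.S1_s_at followed with 15.02 and 15.13 in *Gb* and 14.84 and 14.82 in *Gh* (limma, adjusted p = 0.0624). Of the 5 brightest, 2 passed. GarAffx.28288.1.S1_s_at had 15.16 and 15.22 in *Gb* and 14.61 and 14.55 in *Gh*, a 1.52-fold higher signal in *Gb* (standard error of the log2 difference 0.04, limma adjusted p = 0.0103). GarAffx.21877.1.S1_s_at had 14.66 on both *Gb* arrays and 14.84 and 14.87 in *Gh*, which was 1.15-fold higher (limma, adjusted p = 0.0328), a call that was lost whichever array was left out. None of these 5 has a protein name here.

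The median distance between the 2 arrays was 0.116 on the log2 scale in *Gb* and 0.073 in *Gh* over the 69 probe sets. Other probe sets of like mean signal, taken in bins of 1 log2 unit and weighted by the number of members in each, had median distances of 0.094 and 0.086. Across the 69 probe sets, which are not independent replicates, Pearson's r was 0.998 between the *Gb* arrays, 0.999 between the *Gh* arrays and 0.979 to 0.982 between arrays of different genotypes. The replicate arrays were more than 0.5 apart for 7 members in *Gb* (10.1%, against 4.43% of the other probe sets) and 2 in *Gh* (2.90%, against 4.73%). These backgrounds were not matched for mean signal. The widest distance was that of GarAffx.37326.1.A1_x_at, at 2.80 and 4.18 in *Gb* and 2.63 and 2.81 in *Gh*, where a single array lay just above the floor. The other wide ones in *Gb* included GarAffx.37329.1.S1_at (1.02 apart) and the probe sets for alcohol dehydrogenase (0.76) and leucoanthocyanidin reductase (0.52). They also included GarAffx.24670.1.S1_at (0.62) and GarAffx.24670.1.S1_s_at (0.52), named as cinnamate 4-hydroxylase. GarAffx.30221.1.S1_s_at, with the same name, was only 0.21 apart.

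Of the 69 probe sets, 23 (33.3%) passed the threshold, against 20.3% of all probe sets. Among other probe sets of like mean signal 28.6% passed, which would be 19.7 of 69, so that the count stood close to that of equally bright probe sets. Called and higher in *Gb* were 11 members (15.9%), against 11.4% of all probe sets and 15.9% of those of like mean signal. Called and higher in *Gh* were 12 (17.4%), against 8.87% of all probe sets and 12.7% of those of like mean signal. Of the called members, 12 differed at least 2-fold, 6 in each direction, against a background of 8.23% of all probe sets, 3.94% higher in *Gb* and 4.29% higher in *Gh*. Regardless of the threshold, 13 of the 69 (18.8%) differed at least 2-fold, against 9.85% of all probe sets and 10.0% of those of like mean signal, which would be 6.92 of 69. By direction these were 6 higher in *Gb* (background 4.65%) and 7 higher in *Gh* (background 5.2%). The median difference over the 69 was 0.042 and that over all probe sets 0.037. The array scale bears on the split: scaling to the hybridization controls, transcripts added to every sample, takes 0.29 from every difference and gave 10 members higher in *Gb* and 29 in *Gh* (8.28% and 24.0% of all probe sets). Subtraction of array medians gave 19 and 12 (16.1% and 8.83% of all) and cyclic loess 8 and 13 (8.68% and 8.69% of all), so the split moved over the whole array.

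The *Gb* and *Gh* arrays did not overlap for 59 of the 69 probe sets (85.5%), close to the 81.9% of all probe sets. Both *Gb* arrays were the higher ones in 34 of them (background 62.3%) and both *Gh* arrays in 25 (background 19.7%), and the arrays also did not overlap for 12 of the 15 members below the floor in both genotypes. The count is therefore not read as a difference between the genotypes. The distance between genotypes was larger than both distances between replicate arrays for 55 members (79.7%), against 69.0% of all probe sets, a background not matched for mean signal. For 36 of the 69 the difference was under 0.25 on the log2 scale in either direction. The median size of the difference was 0.24, against 0.13 for the other probe sets and 0.26 for those of like mean signal. None of the 15 members below the floor in both genotypes passed the threshold.

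By level, 7 of 12 members with a mean signal of 4 to 8 passed, 5 of them higher in *Gb* and 2 in *Gh*. Of the 5022 other probe sets in this range 32.0% passed, 847 higher in *Gb* and 761 in *Gh*. Of 21 members between 8 and 12, 8 passed, 4 in each direction. Of the 5889 other probe sets there 40.9% passed, 1433 higher in *Gb* and 978 in *Gh*. Of 20 members at 12 or more, 8 passed, 2 higher in *Gb* and 6 in *Gh*. Of the 1466 other probe sets there 37.0% passed, 302 higher in *Gb* and 240 in *Gh*. These splits by direction were not tested. Above a level of 8 the members thus passed about as often as the others, and with so few members the higher share between 4 and 8 stays a description. The median size of the difference was 1.05 at 4 to 8, 0.39 at 8 to 12 and 0.22 at 12 or more, and 0.44, 0.35 and 0.25 for the other probe sets.

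Of the 4 lowest differences, 3 belonged to probe sets named as enzymes of the phenylpropanoid and flavonoid pathways and 1 to an alcohol dehydrogenase. Cinnamate 4-hydroxylase, a cytochrome P450, makes p-coumaric acid from cinnamic acid, the product of phenylalanine ammonia-lyase, and so feeds lignin and flavonoid synthesis. Leucoanthocyanidin reductase acts at the far end of the flavonoid pathway, where it makes catechin, a unit of proanthocyanidins, from leucoanthocyanidin. Of the 69 probe sets, 3 carry the first name and 1 the second, and all 4 were higher in *Gh* and passed the threshold. Their names came from the shortened list of rows, which holds only genes that the study called differential on these arrays and no probe set higher in *Gb*. Neither the direction of the named members nor their passing is therefore independent evidence. Members of these families without a name here cannot be seen.

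The cinnamate 4-hydroxylase gene LP89 has a pair of probe sets. GarAffx.24670.1.S1_at gave 7.30 and 6.69 on the *Gb* arrays and 9.81 and 9.75 on the *Gh* arrays, a 6.90-fold higher signal in *Gh* (difference -2.79, standard error 0.25, limma adjusted p = 0.0145). GarAffx.24670.1.S1_s_at, which can also pick up related transcripts, gave 10.05 and 9.53 in *Gb* and 12.37 and 12.33 in *Gh*, which was 5.90-fold higher (difference -2.56, standard error 0.21, limma adjusted p = 0.0127). The pair differed by 2.68 in level but by only 0.22 in the difference between genotypes, and in both V.1 lay above V.2 while the *Gh* arrays nearly coincided. Another member with this name, GarAffx.30221.1.S1_s_at, was far brighter, with 13.16 and 13.37 in *Gb* and 14.45 and 14.46 in *Gh*, and was 2.28-fold higher in *Gh* (standard error 0.09, limma adjusted p = 0.0106). The calls for these 3 probe sets remained without any 1 of the 4 arrays.

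The same enzyme is also covered by 3 named probe sets of other designs in the rows used. Ghi.4426.1.S1_s_at, from *G. hirsutum*, gave 9.92 and 9.33 in *Gb* and 12.28 and 12.22 in *Gh*, which was 6.15-fold higher, near both the level and the difference of GarAffx.24670.1.S1_s_at. The *G. raimondii* designs Gra.2967.2.S1_s_at and Gra.2891.1.S1_s_at were 11.3-fold and 3.96-fold higher in *Gh*. These 3 probe sets of other designs had differences of -3.50 to -1.98. Both GarAffx.24670.1.S1_at and GarAffx.24670.1.S1_s_at lay within that range, and GarAffx.30221.1.S1_s_at, at -1.19, lay outside it. Phenylalanine ammonia-lyase, the step before it, had 4 named probe sets, none of them a *G. arboreum* design. Of these, 3 passed, with differences of -3.15 to -1.01 over the 4. The other designs named for this and the following enzymes all came from the shortened list. A row entered that list only if the study called it differential on these arrays and it had the 2-fold excess in *Gh* given above. Their direction, the upper end of their ranges and the count passing were thus shaped by that choice and do not test the members.

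The leucoanthocyanidin reductase gene lar1 was probed by GarAffx.38922.1.S1_s_at, with 9.86 and 9.34 in *Gb* and 11.83 and 11.36 in *Gh*. The arrays of each genotype lay about equally far apart, and both *Gh* arrays were well above both *Gb* arrays. The signal was 3.98-fold higher in *Gh* (difference -1.99, standard error 0.28, limma adjusted p = 0.0322), a call that remained only without G.30 and was lost without V.1, V.2 or G.29 (limma, adjusted p = 0.0641 to 0.0959). The other probe set with this name, Ghi.2177.1.S1_s_at, gave 7.54 and 6.98 in *Gb* and 9.59 and 9.82 in *Gh*, lower on every array, and was 5.45-fold higher in *Gh*.

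Alcohol dehydrogenase, which interconverts acetaldehyde and ethanol and is known in plants for its part in fermentation when oxygen is short, was the name of GarAffx.29310.2.S1_s_at. It gave 10.43 and 11.20 in *Gb* and 13.17 and 13.48 in *Gh*, which was 5.70-fold higher (difference -2.51, standard error 0.33, limma adjusted p = 0.0286). The *Gb* arrays were 0.76 apart, with V.2 the higher one, whereas for cinnamate 4-hydroxylase and leucoanthocyanidin reductase members it was V.1 except in GarAffx.30221.1.S1_s_at. The call was lost without G.29 or G.30. The only other probe set with this name in the rows used, Gra.840.1.A1_at, was below the floor in *Gb* (2.33 and 2.13) and just above it in *Gh* (4.09 and 4.41).

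A probe set similar to an Arabidopsis protein with a phox domain, a fold that binds phosphoinositides, was GarAffx.37329.1.S1_at. It gave 3.66 and 4.68 in *Gb* and 4.92 and 5.54 in *Gh*. The arrays did not overlap, but the spread within each genotype was wide, and the difference of -1.06 (standard error 0.48) did not pass (limma, adjusted p = 0.262), which makes it the 1 member of 13 that differed at least 2-fold without a call. GarAffx.14011.1.S1_s_at, named only as a protein, gave 4.31 and 4.19 in *Gb* and 5.96 and 5.47 in *Gh*, not far above the floor and 2.76-fold higher in *Gh* (limma, adjusted p = 0.0318), and its call was lost without V.1 or V.2.

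The other members among the 10 lowest differences have no protein name here and differed less than 2-fold. GarAffx.24201.1.A1_s_at gave 11.23 and 11.24 in *Gb* and 11.84 and 11.90 in *Gh*. Its replicate arrays nearly coincided, and its 1.55-fold difference had the lowest adjusted p among the members higher in *Gh* (0.00748 from limma) and remained called without any 1 array. GarAffx.23059.1.S1_s_at gave 11.69 and 11.91 in *Gb* and 12.54 and 12.63 in *Gh*, which was 1.72-fold higher (limma, adjusted p = 0.0265), a call that remained only without V.2. GarAffx.5818.1.S1_s_at, at 4.05 and 4.51 in *Gb* and 5.12 and 5.15 in *Gh*, did not pass (limma, adjusted p = 0.0741). Beyond these 10, GarAffx.24390.1.S1_s_at, GarAffx.27377.1.S1_s_at and GarAffx.9898.1.S1_s_at also passed in this direction and were named after their values were seen, with differences of -0.49, -0.45 and -0.29, and the first and the last lost the call whichever array was left out.

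None of the members higher in *Gb* has a protein name here, because the rows used hold only probe sets higher in *Gh*. The highest difference was that of GarAffx.37327.1.S1_at, with 5.47 and 5.99 on the *Gb* arrays. Both *Gh* arrays were below the floor, at 3.996 and 3.69, so that the signal was at least 3.32-fold higher in *Gb* (limma, adjusted p = 0.0272). The call remained only without V.1. GarAffx.37202.1.S1_x_at was the brightest of those at least 2-fold higher in *Gb*, with 11.01 and 10.52 in *Gb* and 9.02 and 9.11 in *Gh*. It was 3.25-fold higher in *Gb* (difference 1.70, standard error 0.20, limma adjusted p = 0.0229), a call lost without G.29 or G.30, and its ending marks probes that can also bind other transcripts.

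Next came 4 _s_at probe sets of moderate signal. GarAffx.38925.1.S1_s_at gave 7.58 and 7.71 in *Gb* and 6.28 and 5.84 in *Gh*, a 2.99-fold higher signal in *Gb* (limma, adjusted p = 0.0231). GarAffx.13408.1.S1_s_at gave 7.57 and 7.79 in *Gb* and 6.47 and 6.23 in *Gh*, a 2.51-fold higher signal in *Gb* (limma, adjusted p = 0.0167). Each of these calls was lost without V.1 or V.2. GarAffx.11010.1.S1_s_at gave 8.14 and 7.97 in *Gb* and 7.03 and 6.94 in *Gh*, a 2.10-fold higher signal (standard error 0.08, limma adjusted p = 0.0104), and its call remained without any 1 array. GarAffx.37324.1.S1_s_at, with 8.14 on both *Gb* arrays and 6.92 and 7.28 in *Gh*, was 2.05-fold higher (limma, adjusted p = 0.0331), a call lost without V.1 or V.2 and under cyclic loess (limma, adjusted p = 0.0559).

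Among those under 2-fold, GarAffx.13776.1.S1_s_at gave 9.40 and 9.37 in *Gb* and 8.54 and 8.56 in *Gh*. It was 1.78-fold higher in *Gb* with a standard error of only 0.03 and had the lowest adjusted p of all 69 probe sets (0.00403 from limma), and the call remained without any 1 array. GarAffx.17438.1.S1_s_at gave 11.33 and 11.47 in *Gb* and 10.53 and 10.41 in *Gh*, 1.90-fold higher in *Gb* (limma, adjusted p = 0.0133), of the 4 omissions lost only without V.2 (adjusted p = 0.0544). The call of GarAffx.28288.1.S1_s_at, given above, was also lost without V.2 (limma, adjusted p = 0.0539) but not without any other array, and under scaling to the hybridization controls its difference was 0.31 (limma, adjusted p = 0.122). The remaining calls in this direction were GarAffx.19281.1.S1_x_at (difference 0.44) and GarAffx.27042.1.S1_s_at (difference 0.26), the latter lost whichever array was left out. Under scaling to the hybridization controls their differences were 0.15 (limma, adjusted p = 0.407) and -0.03, and under cyclic loess both calls were lost (limma, adjusted p = 0.0721 and 0.0760). The other 22 called members kept their direction under every alternative run.

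The 69 probe sets have 56 transcript numbers, 11 of which are shared by 24 of them, and such probe sets show how far a measurement depends on the probes. Where both members of a pair were above the floor on every array, their differences were close. GarAffx.19281.1.S1_at (11.47 and 11.15 in *Gb*, 10.89 on both *Gh* arrays) and GarAffx.19281.1.S1_x_at (12.19 and 12.04 in *Gb*, 11.68 and 11.66 in *Gh*) had differences of 0.42 and 0.44, although only the second passed (limma, adjusted p = 0.146 and 0.0354). The pair GarAffx.37324.1.S1_at (7.86 and 7.73 in *Gb*, 6.73 and 7.16 in *Gh*) and GarAffx.37324.1.S1_s_at had differences of 0.85 and 1.04, and again only the second passed (limma, adjusted p = 0.0721 and 0.0331). With the cinnamate 4-hydroxylase pair and the pair of number 24961, the gap between the differences of a pair was at most 0.22 in these 4 transcripts, whichever side of the threshold they fell. Gaps this small were not particular to them. Among numbers with members below the floor, the gap was 0.17 (19282), 0.16 (37328) and 0.19 (37330). It was wider in 37325 (0.43), 37326 (0.98), 37327 (1.81) and 37329 (1.13).

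Other pairs differ in the letter of the name, S or A, which stands for the sense or antisense orientation of the design sequence. Of transcript 37330, GarAffx.37330.1.S1_s_at gave 7.44 and 7.33 in *Gb* and 7.51 and 7.59 in *Gh*, while GarAffx.37330.1.A1_s_at gave 1.83 and 1.82 in *Gb* and 1.81 and 1.80 in *Gh*, the lowest mean signal of all 69. The S design of this transcript was thus above the floor on every array and the A design below it. For transcripts 37327 and 37329 the S designs were described above and the A designs, GarAffx.37327.1.A1_s_at and GarAffx.37329.1.A1_s_at, had means of 2.67 and 2.24, below the floor on every array. Over all 69, the 11 A designs had a median level of 2.74 and the 58 S designs of 10.64, against 2.68 and 6.74 for the other probe sets.

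The remaining shared numbers hold dim probe sets. The 4 probe sets of 37325 (GarAffx.37325.1.A1_at, GarAffx.37325.1.A1_x_at, GarAffx.37325.1.S1_at and GarAffx.37325.1.S1_s_at) had means of 2.68 to 3.55, and the pairs of 19282 and 37328 of 2.44 to 2.64 and 2.26 to 2.76, all below the floor on every array. GarAffx.37326.1.A1_s_at, the partner of the probe set with the widest replicate distance, had a mean of 3.36. GarAffx.6150.1.S1_at and GarAffx.37323.1.S1_at, at 2.14 and 2.16, completed the 3 lowest levels with GarAffx.37330.1.A1_s_at. Most of the dim ones lay in the longest run of consecutive transcript numbers, 37322 to 37330. Of its 18 probe sets, 11 lay below the floor on all arrays, the highest mean was 8.69 (GarAffx.37322.1.S1_s_at) and 2 passed the threshold. The other 51 had a median level of 11.10, with 4 below the floor and 21 past the threshold. This division was made after the values were seen and was not tested.

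The 23 members neither called nor named above had mean signals of 2.52 to 14.69, with a median of 11.16. Their differences ran from -0.39 to 0.52, 14 of them positive and 9 negative, and the lowest adjusted p was 0.0538 (limma). The arrays of the genotypes overlapped in 6 of these.

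Leaving out 1 array showed how much the calls rest on single arrays. Of the 23 called members, 6 remained called without any 1 of the 4 arrays, 2 lost the call without 1 particular array, 6 without either of 2, 5 remained under a single omission and 4 under none. The 6 were the 3 cinnamate 4-hydroxylase probe sets, GarAffx.24201.1.A1_s_at, GarAffx.11010.1.S1_s_at and GarAffx.13776.1.S1_s_at. Besides those given above, GarAffx.27377.1.S1_s_at remained called only without G.30 and GarAffx.19281.1.S1_x_at only without V.2. The number of members called was 14 without V.1, 12 without V.2, 13 without G.29 and 15 without G.30, while the share of all probe sets called was 10.6% to 16.4%, against 20.3% with all arrays.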

How the data were processed

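RNA of 11 dpa fibers, 2 arrays per genotype, was hybridized to the Affymetrix cotton array. The deposited values are log2 signals, which the authors computed with GCRMA, and were used without further scaling. After removal of 103 AFFX controls, limma 3.58.1 in R 4.3.3 was fitted to 24029 probe sets with genotype as the only term, and p-values were adjusted after Benjamini-Hochberg over all of them. With 2 against 2 arrays an exact permutation test cannot go below p = 0.333. The calls rest on the spread of each probe set itself, combined by limma with a spread shared across probe sets (prior degrees of freedom 1.10). The methods call the replicates independent, but the labels do not tie them to separate plants, so p-values measure only the spread between these arrays. The number of arrays limits the precision.

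Probe sets named are the 10 with the largest differences in each direction, the 5 brightest, the 3 dimmest, those with a protein name and those sharing a transcript number. Members, lists and tests were chosen with earlier results of these data known. Protein names came from a shortened table of the genes that the study called differential between the genotypes, whose own fold changes and p-values were not used. That table names 7 of the 69, and 0 of them matched the reference table of 74561 *G. barbadense* genes used here. No sequence is printed. The alternatives were other adjustments, the methods' t-test, which pools 1 variance over probe sets, other variance priors, a signal filter, other array scalings, other floors and bins, and leaving out each array. The fit was tested on simulated data.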

Additional observations from a re-analysis of the deposited data

How the results depend on the processing

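No paired analysis was possible because the labels of the genotypes share no replicate number. With 23 members called (11 higher in *Gb*, 12 in *Gh*), the methods' t-test called 27 after Benjamini-Hochberg (31.5% of all probe sets) and 18 after Bonferroni adjustment (17.4%), over the 66 members it kept, the intensity trend 25 (22.8%), the robust prior 22 (18.4%), cyclic loess 21 (17.4%) and subtraction of array medians 31 (24.9%), of which 19 were higher in *Gb*. The filter called 26 of 52 members (50.0%), against 49.1% of all probe sets it kept. Bonferroni adjustment of limma called 0 members in either direction, and only 0.137% of all probe sets. An unadjusted p under 0.05 was found for 39 members (56.5%), against 32.6% of all probe sets. Scaling to the hybridization controls called 39 (32.2% of all probe sets), of which 29 were higher in *Gh*, with a median difference of -0.25. The 11 probe sets ending in _at gave 2 calls (18.2%, against 15.7% of all probe sets with this ending), 1 in each direction, and a median level of 4.70. A difference of at least 1 as well as a call left 12 (17.4%, against 8.23% of all probe sets), 6 in each direction. Leaving out 1 array gave 12 to 15 calls, 5 to 8 higher in *Gb* and 6 to 7 in *Gh*, and median levels of 9.71 to 10.02. The causes were not tested, other than the fewer arrays or probe sets by construction. Floors of 3 and 5 put 12 and 16 members below the floor.

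Of the called members, GarAffx.27042.1.S1_s_at reversed, to -0.03 under the hybridization controls. The other reversed members were not called. Under the hybridization controls the difference became -0.0507 (GarAffx.14950.1.S1_s_at), -0.0581 (GarAffx.19282.1.S1_s_at), -0.22 (GarAffx.19282.1.S1_x_at, GarAffx.37325.1.A1_at and GarAffx.37327.1.A1_s_at), -0.25 (GarAffx.37323.1.S1_at and GarAffx.6150.1.S1_at), -0.0882 (GarAffx.37325.1.A1_x_at), -0.26 (GarAffx.37328.1.A1_at), -0.23 (GarAffx.37329.1.A1_s_at) and -0.27 (GarAffx.37330.1.A1_s_at). Under cyclic loess it became -0.011 (GarAffx.37328.1.A1_at), -0.012 (GarAffx.37330.1.A1_s_at) and -0.0011 (GarAffx.6150.1.S1_at). Leaving out 1 array gave -0.473 to 0.0267 for GarAffx.37325.1.S1_at and -0.444 to 0.045 for GarAffx.37325.1.S1_s_at, both positive only without G.30, and without G.29 the difference of GarAffx.37328.1.S1_x_at was 0.0082. Of the alternatives for named members that were called, 200 kept the call and 66 lost it. These counts leave out GarAffx.24390.1.S1_s_at, GarAffx.27042.1.S1_s_at, GarAffx.27377.1.S1_s_at and GarAffx.9898.1.S1_s_at, called members that the naming rule does not cover. For those not called, 263 stayed so in the same direction, 30 passed and 17 changed direction.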
